A study of Mus musculus with 7 samples.

Results

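Type I interferon-stimulated genes and RNA sensors were followed as a set of 41 genes in RNA sequencing of isolated mouse hepatocytes, which make up most of the liver's mass. The members were found by gene symbol from a list of receptors, transcription factors, RNA sensors and antiviral effectors, and all 41 were among the 12151 genes of the table. They also all passed the filter on low values, which left 12105 genes for testing. The study compared 3 wild-type (WT) libraries, for which the labels name no treatment, with 4 libraries labelled ALAS1/2-KO and treated with tamoxifen. ALAS1 and ALAS2 are the enzymes that open heme synthesis, and the series asks whether ALAS1 acts on silencing by small RNAs independently of heme. The ALAS1/2-KO mice carried an Alas1 allele whose exons 4 and 5 are removed by an inducible Cre recombinase, and Alas2 was lowered by an injected small interfering RNA (siRNA) joined to GalNAc, a sugar that hepatocytes take up. For the Cre driver, age, sex, strain and any control siRNA, the sources used here give nothing. Genotype, tamoxifen and siRNA, which is itself a double-stranded RNA, cannot be told apart in this comparison. The labels do not tell whether each library of a group is from its own mouse. P-values therefore rest on the spread between libraries, and this spread may be technical.

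Type I interferons are secreted cytokines that bind the IFNAR1 and IFNAR2 receptor chains. The kinases JAK1 and TYK2 then act on STAT2, which works with IRF9 in a transcription factor complex that binds the interferon-stimulated response element (ISRE). The genes it switches on include RNA sensors such as RIG-I and MDA5, antiviral effectors of the IFIT, OAS and MX families, and the inhibitor USP18, which limits signalling at the receptor. Hepatocytes carry the receptor and respond to the cytokine, as do the macrophages, endothelial cells and other non-parenchymal cells of the liver.

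WT libraries held 22916097 to 34048680 recovered reads over the listed genes, and ALAS1/2-KO libraries held 27933939 to 30195635. Levels below are the deposited CPM, read counts divided by a scaled library size that is not the plain sum of reads. That size was 0.84, 0.80 and 1.00 times the listed reads in WT replicates 1 to 3. In ALAS1/2-KO replicates 1 to 4 it was 1.18, 1.09, 1.08 and 1.07 times the listed reads. The scaling thus differed between the groups, and the sources used here do not give how it was set. A member's fold change is ALAS1/2-KO over WT from limma, a linear model fitted on log2 values of all genes. Its p-values were adjusted over the 12105 genes tested. An adjusted p under 0.05 counted as a call. Gene coordinates are those of GENCODE M21 on GRCm38 (mm10). Alas2 fell 22.8-fold (WT 11.3 ± 5.18 CPM, ALAS1/2-KO 0.44 ± 0.26 CPM, SD, n = 3 and 4, limma adjusted p = 0.0027). Alas2 is also a red cell gene, and the summed level of the 5 erythroid genes in the table, Alas2 among them, was 17.98 to 51.6 CPM in WT and 3.18 to 7.59 CPM in ALAS1/2-KO, so its fall does not by itself check the siRNA. Alas1 stood at 280, 265 and 83.5 CPM in WT and at 287, 332, 307 and 361 CPM in ALAS1/2-KO, higher and not called (log2 fold change 0.80, limma adjusted p = 0.277), and this value of the whole gene does not check the removal of its exons. Of the 7 hepatocyte markers in the table, Alb was called lower and for Apoa1, Ttr and Serpina1a the lowest ALAS1/2-KO library exceeded the highest WT library. ALAS1/2-KO replicates 1 and 2 had the lowest summed markers of macrophages, sinusoidal endothelial cells and stellate cells, as given with the library values below. For B cell and cholangiocyte markers, replicate 2 had the highest sum of the ALAS1/2-KO libraries. In limma, 5.1% of all genes tested were called, 352 higher and 265 lower. That split was 2533 and 202 with CPM rescaled to the sum of the listed genes, which raised the median log2 fold change of all genes to 0.32, and 238 and 324 with scaling that left out the 20 most abundant and the mitochondrial genes.

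Every interferon-stimulated gene and sensor of the set that passed the test was higher in the ALAS1/2-KO libraries. The call was reached by 14 of the 41 members, all higher, at folds from 1.46 to 3.05. Over all genes tested, 2.91% were called higher and 2.19% lower. The called members were the transcription factors Irf7 and Stat2, the sensors Dhx58 and Zbp1, and the effectors and other induced genes Usp18, Rsad2, Ifit1, Ifit3, Mx2, Bst2, Parp9, Dtx3l, Ifi27 and Ifi44. No member was called lower in limma or with limma voom on the recovered reads, and none was lower at an unadjusted p under 0.05. At that unadjusted level 26 members were higher, against 11.8% of all genes tested. In 24 members the lowest ALAS1/2-KO library exceeded the highest WT library, an order found in 11.3% of all genes tested, and 10 of these 24 were not called.

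The median log2 fold change of the members was 0.54, with quartiles of 0.25 and 0.75. Over all genes tested the median was -0.02, with quartiles of -0.25 and 0.19. A positive log2 fold change was found in 38 members, and in 48.0% of all genes tested. Measured against each gene's WT mean, the median member stood at -0.10, -0.0017 and 0.16 in WT replicates 1 to 3, and at 0.44, 0.60, 0.56 and 0.52 in ALAS1/2-KO replicates 1 to 4, on the log2 scale. All 4 ALAS1/2-KO medians were above all 3 WT medians. In this bulk RNA, more cells of a responding type and more RNA per cell cannot be told apart.

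**Figure D1:**
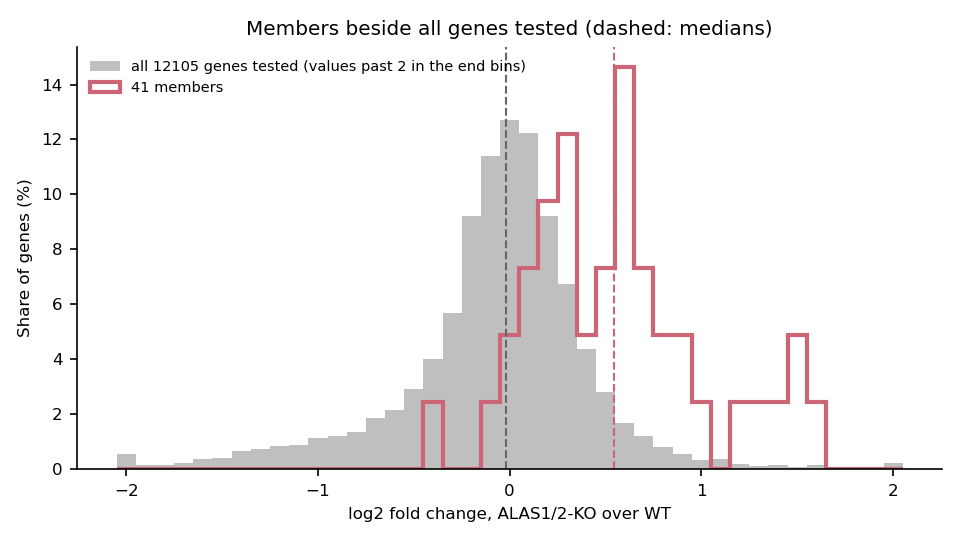
Share of genes (%, y axis) by log2 fold change of ALAS1/2-KO over WT (x axis), for all 12105 genes tested (grey) and the 41 members (outline), with dashed lines at the medians. The members' median is at 0.54 and that of all genes at -0.02.

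The strength of the calls differed between members and depended on single libraries. Usp18 was the only member called in each of the 7 fits that left out 1 library and in each of the 13 other alternatives. Without WT replicate 2 it was the only member called, and without WT replicate 1 the members called were 4. Leaving out WT replicate 3 gave 11 calls, and leaving out ALAS1/2-KO replicate 1, 2, 3 or 4 gave 15, 11, 9 and 7. Without limma's intensity trend 8 calls were lost (Bst2, Dtx3l, Ifit1, Ifit3, Mx2, Parp9, Stat2 and Zbp1), and 4 were lost (Bst2, Ifit3, Mx2 and Stat2) with scaling that left out the most abundant genes. Calls over all genes tested moved too, from 617 with all libraries to 212 without WT replicate 1 and 306 without the trend. In those fits the loss of calls was thus not particular to the members. A further 8 members had an adjusted p between 0.05 and 0.1 with all libraries.

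**Figure D2:**
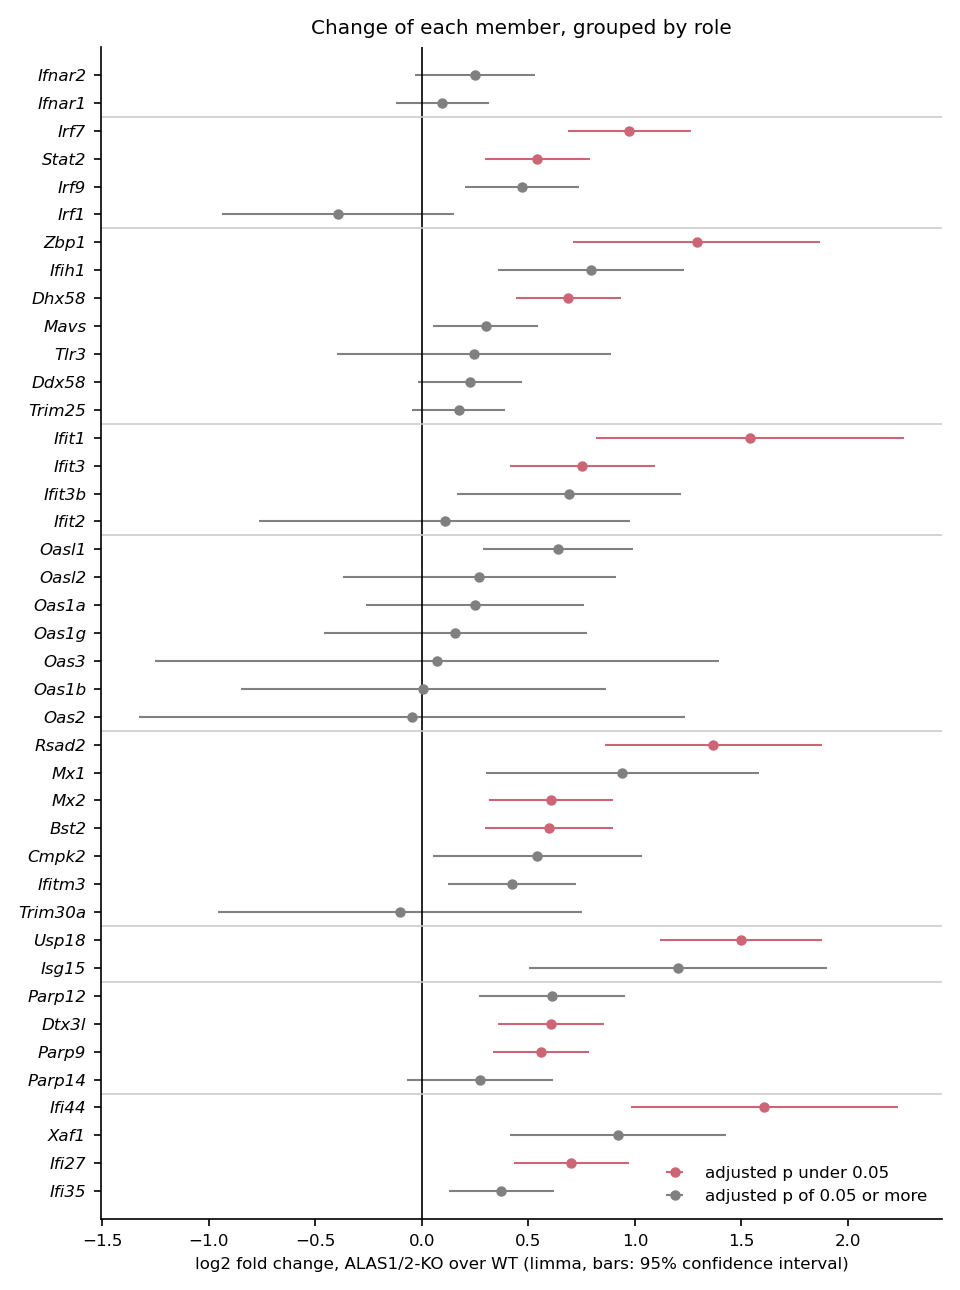
log2 fold change of each of the 41 members, ALAS1/2-KO over WT, with the 95% confidence interval from limma, ordered by role and colored by call. The 14 called members lie between 0.54 and 1.61, and the intervals of the OAS family other than Oasl1 cross 0.

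Promoter windows, which reach from 250 bases before to 50 bases after an annotated gene start, were found in RefSeq (GRCm38.p6) for 31 of the 41 members. They are shown because the ISRE is the element that the STAT2 complex binds. The ISRE core searched was GAAANNGAAA on either strand. It was present for 14 of the 31 members, or 45.2%, and for 351 of 9379 other tested genes with a window, or 3.74%. Of all genes with a window in that table, 3.99% held it. Among members called higher, 5 of 8 with a window had a match, and among those not called 9 of 23 had one. A second motif, the interferon-gamma activated site core TTCNNNGAA, was present for 8 of the 31 members, or 25.8%, and for 8.33% of the other tested genes. Matches are a description of letters in these windows, overlapping matches included, and do not show binding.

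The stretches below run 5′ to 3′ on the strand of the gene, lie before its start, and carry 15 bases on either side of the matches where the window allows. Capitals mark the ISRE core matches. The first 5 belong to called members: Rsad2 (chr12:26456548-26456587, minus strand), Stat2 (chr10:128270261-128270300, plus strand), Ifit1 (chr19:34640770-34640828, plus strand), Ifit3 (chr19:34583358-34583431, plus strand) and Bst2 (chr8:71537572-71537617, minus strand).
Rsad2: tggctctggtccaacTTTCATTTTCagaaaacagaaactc
Stat2: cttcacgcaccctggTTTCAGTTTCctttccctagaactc
Ifit1: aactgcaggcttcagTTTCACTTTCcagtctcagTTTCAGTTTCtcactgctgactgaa
Ifit3: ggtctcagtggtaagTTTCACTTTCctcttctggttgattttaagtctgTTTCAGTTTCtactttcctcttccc
Bst2: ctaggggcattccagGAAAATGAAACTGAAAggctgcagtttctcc
The next 4 belong to members that were not called: Isg15 (chr4:156200860-156200911, minus strand), Oas1a (chr5:120907526-120907560, minus strand), Oas3 (chr5:120777710-120777749, minus strand) and Trim30a (chr7:104465205-104465244, minus strand).
Isg15: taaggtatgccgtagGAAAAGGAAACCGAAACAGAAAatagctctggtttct
Oas1a: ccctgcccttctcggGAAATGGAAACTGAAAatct
Oas3: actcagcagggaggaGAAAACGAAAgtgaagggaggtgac
Trim30a: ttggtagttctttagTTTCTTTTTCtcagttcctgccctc
Isg15 held 3 overlapping matches, Ifit1, Ifit3, Bst2 and Oas1a held 2, and the others 1. The stretch of Ifit3b, a close copy of Ifit3, had the same letters as that of Ifit3. Members with these elements were thus found on both sides of the call.

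Among the transcription factors, Irf7 and Stat2 rose and Irf9 and Irf1 were not called. Irf7, the factor that amplifies transcription of interferon genes (ENSMUSG00000025498.15, chr7:141262706-141266481, minus strand), stood at 36.4, 39.1 and 42.3 CPM in the WT libraries and at 63.6, 88.0, 76.7 and 81.9 CPM in the ALAS1/2-KO libraries. The groups were well separated, the lowest ALAS1/2-KO library being replicate 1. Irf7 rose 1.96-fold (log2 fold change 0.97, SE 0.13, limma adjusted p = 0.00641), and among fits that each dropped 1 library only the one without WT replicate 2 missed the threshold (adjusted p = 0.055). Stat2, the DNA-bound complex's activating subunit (ENSMUSG00000040033.16, chr10:128270559-128292849, plus strand), stood at 62.8, 75.9 and 69.6 CPM in WT and 91.1, 101, 101 and 111 CPM in ALAS1/2-KO. Its groups did not overlap, and the rise was 1.46-fold (log2 fold change 0.54, SE 0.11, limma adjusted p = 0.0314). The Stat2 call held without ALAS1/2-KO replicate 1 (adjusted p = 0.0222) and was lost without any other single library, at adjusted p-values from 0.0599 to 0.107.

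Irf9, the DNA-binding partner of STAT2, stood at 18.3, 25.1 and 21.3 CPM in WT and at 29.5, 29.1, 28.8 and 31.4 CPM in ALAS1/2-KO. All 4 ALAS1/2-KO libraries exceeded the 3 of WT, but the log2 fold change of 0.47 did not pass (limma adjusted p = 0.0572). Irf1, a factor best known for responses to interferon-gamma and inflammation, had the lower mean in ALAS1/2-KO, at 21.7, 21.2 and 37.0 CPM in WT and 14.8, 24.6, 19.99 and 20.3 CPM in ALAS1/2-KO. The Irf1 groups overlapped, WT replicate 3 was the highest library, and the log2 fold change was -0.39 (95% confidence interval -0.94 to 0.15, limma adjusted p = 0.353).

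Neither receptor chain was called, and neither had an unadjusted limma p under 0.05 or a call with limma voom. Ifnar1 stood at 22.6, 21.8 and 26.3 CPM in WT and 24.3, 25.3, 25.8 and 24.9 CPM in ALAS1/2-KO. Its libraries overlapped fully, and the 95% confidence interval of the log2 fold change was -0.12 to 0.31 (limma adjusted p = 0.582). Ifnar2 stood at 27.3, 26.3 and 29.6 CPM in WT and 26.8, 34.9, 35.8 and 35.4 CPM in ALAS1/2-KO, where replicate 1 lay within the WT range and the other 3 libraries above it (log2 fold change 0.25, 95% confidence interval -0.03 to 0.53, limma adjusted p = 0.258). Of the exonic bases of Ifnar2, 9.46% overlap another annotated gene, so its level is uncertain to that extent.

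Of 7 nucleic acid sensors and adaptors, Zbp1 and Dhx58 rose and the other 5 were not called, all with positive log2 fold changes. Zbp1, a sensor of Z-form nucleic acids that can trigger cell death (ENSMUSG00000027514.14, chr2:173206612-173218923, minus strand), stood at 7.88, 9.45 and 12.1 CPM in WT and at 23.3, 37.0, 19.5 and 18.9 CPM in ALAS1/2-KO. Every ALAS1/2-KO library was above every WT library and replicate 2 was the highest. Zbp1 rose 2.44-fold (log2 fold change 1.29, SE 0.25, limma adjusted p = 0.0318), and the call was lost without WT replicate 1, 2 or 3 (adjusted p of 0.107, 0.146 and 0.0526) or ALAS1/2-KO replicate 4 (0.0536). Dhx58, which encodes LGP2, a regulator of the other RIG-I-like receptors (ENSMUSG00000017830.15, chr11:100694884-100704271, minus strand), stood at 8.46, 9.29 and 9.02 CPM in WT and at 13.4, 15.9, 13.4 and 15.04 CPM in ALAS1/2-KO. The WT libraries were close together and the rise was 1.61-fold (log2 fold change 0.69, SE 0.11, limma adjusted p = 0.0152), with adjusted p-values of 0.0551 and 0.0768 without WT replicates 1 and 2.

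The genes of MDA5, RIG-I and TLR3, and those of the adaptors, fell short of the threshold. Ifih1, encoding MDA5, a sensor of long double-stranded RNA, stood at 19.99, 15.4 and 19.4 CPM in WT and at 37.1, 40.3, 26.6 and 24.9 CPM in ALAS1/2-KO. Its groups did not overlap and ALAS1/2-KO replicates 1 and 2 were the highest, with a log2 fold change of 0.79 (95% confidence interval 0.36 to 1.23, limma adjusted p = 0.0522, exact p = 0.0571 by two-sided permutation). Ddx58, encoding RIG-I, a sensor of RNA with 5′ triphosphate ends, stood at 21.7, 22.4 and 25.3 CPM in WT and at 26.4, 30.8, 26.2 and 24.9 CPM in ALAS1/2-KO. One library, ALAS1/2-KO replicate 4, fell within the WT range, and the log2 fold change was 0.23 (95% confidence interval -0.02 to 0.47, limma adjusted p = 0.236).

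Tlr3, the endosomal sensor of double-stranded RNA, stood at 5.06, 4.25 and 8.23 CPM in WT and at 4.51, 7.76, 6.72 and 8.41 CPM in ALAS1/2-KO. Its groups overlapped widely (log2 fold change 0.25, 95% confidence interval -0.40 to 0.89, limma adjusted p = 0.636). Mavs, the mitochondrial adaptor through which RIG-I and MDA5 signal, stood at 47.8, 45.1 and 37.4 CPM in WT and 51.9, 51.9, 57.1 and 52.3 CPM in ALAS1/2-KO. These groups did not overlap but the difference was small (log2 fold change 0.30, 95% confidence interval 0.05 to 0.55, limma adjusted p = 0.145). Trim25, a ubiquitin ligase that acts on RIG-I signalling, stood at 59.3, 62.4 and 53.4 CPM in WT and at 66.9, 61.5, 65.0 and 69.7 CPM in ALAS1/2-KO, where replicate 2 lay within the WT range (log2 fold change 0.17, limma adjusted p = 0.307).

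**Figure D3:**
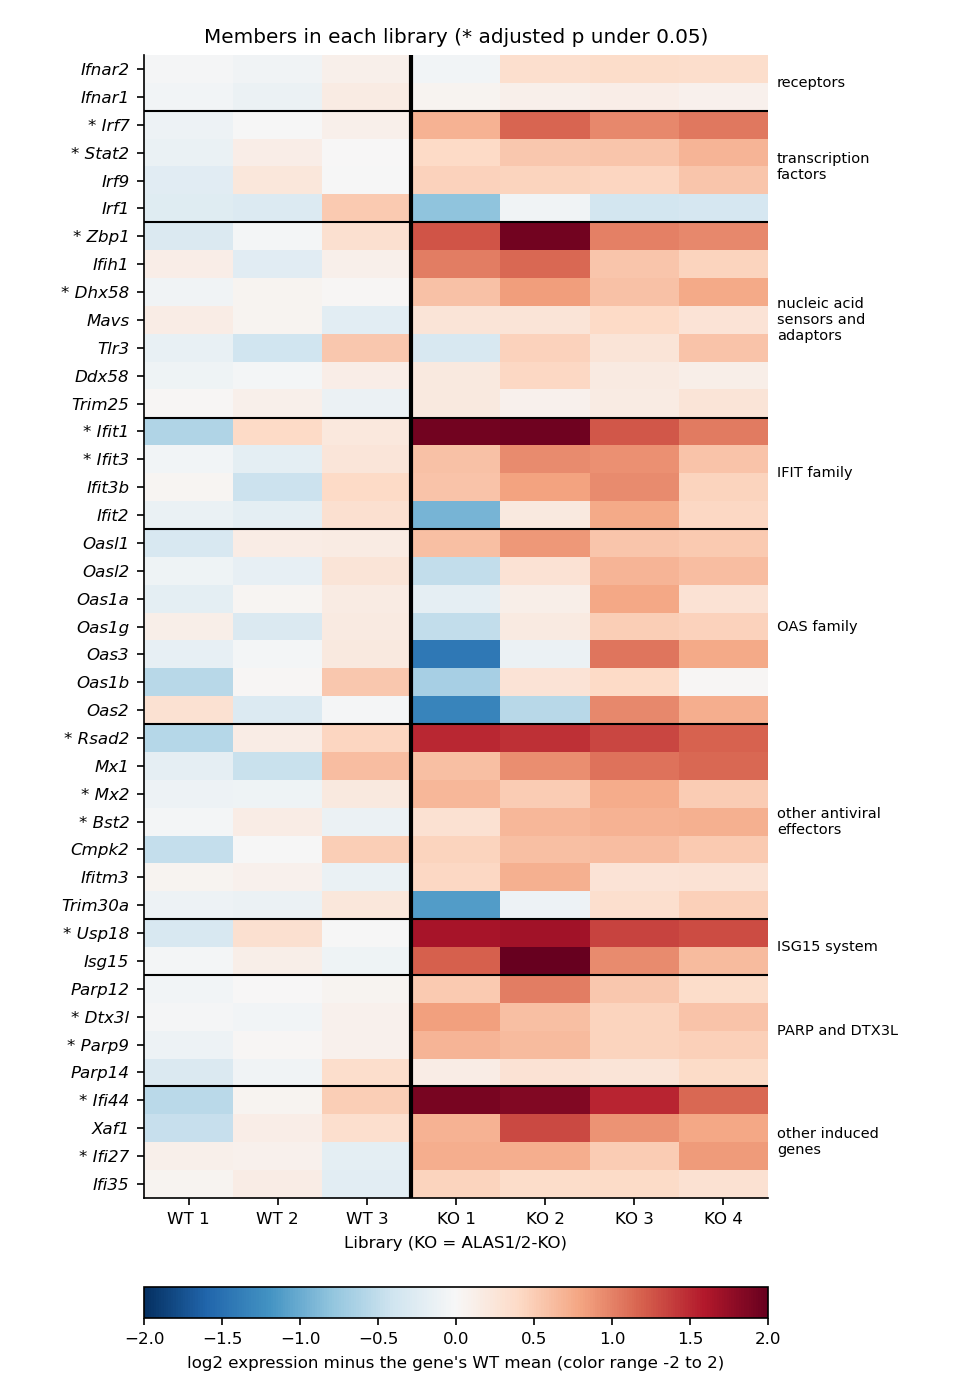
log2 expression of the 41 members (rows, grouped by role) in the 7 libraries (columns), each minus the gene's WT mean, with red for higher and blue for lower and an asterisk at the 14 called members. Most members are red in all 4 ALAS1/2-KO libraries, while Irf1, Ifit2, Trim30a and most of the OAS family are blue in ALAS1/2-KO replicate 1.

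Usp18 gave the smallest adjusted p of the set. USP18 removes ISG15 from proteins and binds IFNAR2 to dampen the receptor. Usp18 (ENSMUSG00000030107.10, chr6:121245906-121270917, plus strand) stood at 8.19, 12.7 and 10.2 CPM in WT and at 32.3, 32.7, 26.3 and 25.5 CPM in ALAS1/2-KO. The lowest ALAS1/2-KO library held more than the highest WT library by a wide margin. From a mean of 10.4 ± 2.28 CPM (SD, n = 3) to 29.2 ± 3.86 CPM (SD, n = 4), it rose 2.83-fold (log2 fold change 1.50, SE 0.17, limma adjusted p = 0.00367, exact permutation p = 0.0286, the smallest the design allows). Leaving out each library in turn gave adjusted p-values from 0.0031 to 0.0227. Isg15, the ubiquitin-like protein that USP18 cleaves from its targets (ENSMUSG00000035692.6, chr4:156199424-156200818, minus strand), stood at 7.31, 8.18 and 7.09 CPM in WT and at 17.3, 31.2, 14.5 and 11.6 CPM in ALAS1/2-KO. All 4 ALAS1/2-KO libraries were above WT, replicate 2 far above the others, and with that spread the 2.3-fold difference was not called (log2 fold change 1.20, SE 0.30, limma adjusted p = 0.0658). Without ALAS1/2-KO replicate 2 the Isg15 log2 fold change was 0.92 and the adjusted p was 0.0374.

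In the IFIT family, whose proteins bind foreign RNA ends and block its translation, Ifit1 and Ifit3 rose. The 4 genes lie side by side within 99.3 kb of chromosome 19. Ifit1 (ENSMUSG00000034459.8, chr19:34640871-34650009, plus strand) stood at 3.03, 6.07 and 5.33 CPM in WT and at 17.8, 18, 10.97 and 9.53 CPM in ALAS1/2-KO, with replicates 1 and 2 the highest. It rose 2.91-fold (log2 fold change 1.54, SE 0.31, limma adjusted p = 0.0351). That call was lost with limma voom. It was also lost when WT replicate 1, 2 or 3 (adjusted p of 0.0949, 0.108 and 0.0752) or ALAS1/2-KO replicate 2 or 3 (0.0728 and 0.0538) was left out. Ifit3 (ENSMUSG00000074896.3, chr19:34583531-34588731, plus strand) stood at 11.1, 10.0 and 13.7 CPM in WT and at 17.3, 22.2, 21.7 and 17.2 CPM in ALAS1/2-KO, with no overlap. The Ifit3 rise was 1.69-fold (log2 fold change 0.75, SE 0.15, limma adjusted p = 0.0303), lost when WT replicate 1 or 2 (adjusted p of 0.0997 and 0.149) or ALAS1/2-KO replicate 2, 3 or 4 (0.0611, 0.0636 and 0.0537) was left out.

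Ifit3 and Ifit3b share sequence: 51.2% of the 50-base stretches of Ifit3 and 45.0% of those of Ifit3b occur in another gene, so reads may have been split between them or dropped. Ifit3b averaged 3.39 ± 0.971 CPM over the WT libraries (SD, n = 3) and 5.42 ± 0.865 CPM over the ALAS1/2-KO libraries (SD, n = 4), with no overlap between the groups (log2 fold change 0.69, limma adjusted p = 0.124). Ifit2 was not called, and stood at 5.17, 4.92 and 7.12 CPM in WT and at 2.93, 6.49, 9.60 and 7.52 CPM in ALAS1/2-KO. Its lowest library of all was ALAS1/2-KO replicate 1, its highest was ALAS1/2-KO replicate 3, and the log2 fold change was 0.11 (95% confidence interval -0.76 to 0.98, limma adjusted p = 0.889).

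No member of the OAS family was called, in limma or with limma voom, and 1 of 7, Oasl1, had an unadjusted limma p under 0.05. These enzymes make 2′-5′-linked oligoadenylates on double-stranded RNA, which activate RNase L, and the OAS-like proteins lack or have reduced that activity. Oas2, Oas3, Oas1b, Oas1g and Oas1a lie within 177 kb of chromosome 5. Oas2 stood at 15.1, 10.1 and 12.1 CPM in WT and at 4.87, 8.34, 23.9 and 20.4 CPM in ALAS1/2-KO. Oas3 stood at 3.76, 4.09 and 4.83 CPM in WT and at 1.51, 3.88, 8.89 and 7.19 CPM in ALAS1/2-KO. In both genes ALAS1/2-KO replicate 1 was the lowest of the 7 libraries and replicates 3 and 4 were the highest, so that the ALAS1/2-KO group spanned the WT group on both sides.

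The log2 fold changes were -0.05 for Oas2 (95% confidence interval -1.33 to 1.23) and 0.07 for Oas3 (-1.25 to 1.39), intervals that leave room for large changes either way. The signs of Oas2 and of Oas1b, at 0.01, lie so near 0 that they changed with the scaling. Oas2 was called higher, at 0.82 and 0.85, in the 2 fits given with the marker values below. The fit at 0.85 left out ALAS1/2-KO replicates 1 and 2, the libraries with the lowest Oas2 (4.87 and 8.34 CPM). The fit at 0.82 adjusted for a marker score that was lowest in the same libraries. Neither is therefore a separate test of a change in Oas2. Oas1a, at 0.25, and Oas1g, at 0.16, share 57.6% and 54.7% of their 50-base stretches with another gene and are uncertain as single genes. Oasl1 stood at 7.36, 10.3 and 10.4 CPM in WT and at 14.1, 17.0, 13.6 and 13.2 CPM in ALAS1/2-KO, the only OAS family member without overlap (log2 fold change 0.64, limma adjusted p = 0.0522). Oasl2, its neighbour within 41.0 kb, had a log2 fold change of 0.27 and overlapping groups (limma adjusted p = 0.594).

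Among the other antiviral effectors, Rsad2, Mx2 and Bst2 rose. Rsad2 encodes viperin, an enzyme that makes a chain-terminating nucleotide (ENSMUSG00000020641.16, chr12:26442746-26456452, minus strand). It stood at 5.01, 8.30 and 10.1 CPM in WT and at 21.3, 20.7, 19.1 and 17.0 CPM in ALAS1/2-KO. The groups did not overlap and the ALAS1/2-KO libraries were close together. Rsad2 rose 2.58-fold (log2 fold change 1.37, SE 0.22, limma adjusted p = 0.018), and among fits that each dropped 1 library only the one without WT replicate 2 lost the call (adjusted p = 0.0837). Cmpk2, the nucleotide kinase that supplies viperin's substrate, lies next to Rsad2 within 37.1 kb of chromosome 12 and was not called. Cmpk2 stood at 3.91, 5.44 and 7.79 CPM in WT and at 7.47, 8.37, 8.43 and 7.92 CPM in ALAS1/2-KO, where replicate 1 was below WT replicate 3 (log2 fold change 0.54, limma adjusted p = 0.176).

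The MX proteins are dynamin-like GTPases that trap viral components. Mx2 (ENSMUSG00000023341.15, chr16:97535308-97560900, plus strand) stood at 6.47, 6.55 and 7.96 CPM in WT and at 11.1, 9.94, 11.7 and 9.93 CPM in ALAS1/2-KO. With no overlap, Mx2 rose 1.52-fold (log2 fold change 0.61, SE 0.13, limma adjusted p = 0.0351), a call lost when WT replicate 1 or 2 (adjusted p of 0.112 and 0.165) or ALAS1/2-KO replicate 2, 3 or 4 (0.0559, 0.0797 and 0.0703) was left out. Mx1 stood at 1.93, 1.59 and 3.40 CPM in WT and at 3.36, 4.25, 4.71 and 4.91 CPM in ALAS1/2-KO. WT replicate 3 was just above ALAS1/2-KO replicate 1, and the log2 fold change of 0.94 was not called with all libraries (limma adjusted p = 0.0976) but was without that WT library (1.25, adjusted p = 0.0474).

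Bst2 encodes tetherin, which holds budding virus particles at the cell surface (ENSMUSG00000046718.8, chr8:71534255-71537456, minus strand). It stood at 126, 143 and 120 CPM in WT and at 160, 206, 210 and 212 CPM in ALAS1/2-KO, where replicate 1 was the lowest. Bst2 rose 1.51-fold (log2 fold change 0.60, SE 0.13, limma adjusted p = 0.0396, exact permutation p = 0.0571). The Bst2 call held without ALAS1/2-KO replicate 1 (adjusted p = 0.0112) and was lost without any other single library, at adjusted p-values from 0.0819 to 0.127, and under quantile normalization. Ifitm3, which blocks fusion of viruses in endosomes, was the most abundant member, at 294, 301 and 258 CPM in WT and 380, 463, 345 and 346 CPM in ALAS1/2-KO. Its groups did not overlap, but the log2 fold change of 0.42 was not called (limma adjusted p = 0.108). Trim30a, a ubiquitin ligase family gene, stood at 11.01, 10.9 and 13.8 CPM in WT and at 5.44, 11.02, 14.9 and 16.5 CPM in ALAS1/2-KO (log2 fold change -0.10, limma adjusted p = 0.89, and 0.23 under the rescaling that raised the median of all genes by a like amount). The lowest of the 7 libraries for Trim30a was ALAS1/2-KO replicate 1 and the highest ALAS1/2-KO replicate 4.

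Parp9 and Dtx3l, whose proteins form a complex that adds ADP-ribose to ubiquitin, both rose. Parp9 (ENSMUSG00000022906.15, chr16:35938470-35972605, plus strand) stood at 24.8, 27.0 and 28.1 CPM in WT and at 42.6, 41.4, 36.3 and 37.1 CPM in ALAS1/2-KO, a 1.47-fold rise (log2 fold change 0.56, SE 0.10, limma adjusted p = 0.0222). Dtx3l (ENSMUSG00000049502.17, chr16:35926511-35939151, minus strand) stood at 21.2, 20.8 and 23.0 CPM in WT and at 38.2, 32.7, 29.4 and 32.1 CPM in ALAS1/2-KO, a 1.52-fold rise (log2 fold change 0.61, SE 0.11, limma adjusted p = 0.0234). In both genes replicates 1 and 2 of ALAS1/2-KO were the highest and no library overlapped the other group. The 2 genes lie head to head, and 458 exonic bases of each overlap the other on the opposite strand. The sources used here do not give the strand handling, so reads in the overlap may be counted to either gene. Both calls were lost without WT replicates 1 and 2, at adjusted p-values of 0.0768 and 0.116 for Parp9 and 0.0775 and 0.126 for Dtx3l, and that of Dtx3l also without ALAS1/2-KO replicate 4 (0.0555).

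Parp12, an ADP-ribosyltransferase, averaged 20.3 ± 0.777 CPM over the WT libraries (SD, n = 3) and 31.5 ± 6.57 CPM over the ALAS1/2-KO libraries (SD, n = 4), with ALAS1/2-KO replicate 2 at 41.1 CPM the highest. It was not called with all libraries (log2 fold change 0.61, limma adjusted p = 0.0546) and was called without that replicate (0.48, adjusted p = 0.0486). Parp14, next to Dtx3l in the same cluster of 140 kb on chromosome 16, averaged 29.7 ± 6.9 CPM in WT against 35.3 ± 2.42 CPM in ALAS1/2-KO (limma adjusted p = 0.306), and its groups overlapped.

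Ifi44 and Ifi27 rose among the remaining induced genes. Ifi44, whose protein has been linked to reduced virus growth (ENSMUSG00000028037.13, chr3:151730922-151749960, minus strand), stood at 2.30, 3.49 and 4.77 CPM in WT and at 12.8, 12.4, 9.78 and 7.59 CPM in ALAS1/2-KO. That 3.05-fold rise (log2 fold change 1.61, SE 0.27, limma adjusted p = 0.0216) was the largest fold of the 41, with adjusted p-values of 0.0537 and 0.114 without WT replicates 1 and 2. Ifi27, a mitochondrial and nuclear membrane protein gene (ENSMUSG00000064215.13, chr12:103434211-103440239, plus strand), stood at 44.2, 43.6 and 35.9 CPM in WT and at 67.7, 68.0, 58.5 and 73.9 CPM in ALAS1/2-KO. Its groups did not overlap, and it rose 1.63-fold (log2 fold change 0.70, SE 0.12, limma adjusted p = 0.0193), with adjusted p-values of 0.0856 without WT replicate 2 and 0.0513 without ALAS1/2-KO replicate 4.

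Xaf1, a promoter of apoptosis, averaged 5.85 ± 1.57 CPM over the WT libraries (SD, n = 3) and 11.02 ± 2.29 CPM over the ALAS1/2-KO libraries (SD, n = 4), with no overlap (log2 fold change 0.92, limma adjusted p = 0.0522). Without ALAS1/2-KO replicate 1 its adjusted p was 0.0378. Ifi35 averaged 18.02 ± 2.24 CPM in WT against 23.3 ± 0.864 CPM in ALAS1/2-KO, also without overlap (log2 fold change 0.37, limma adjusted p = 0.0877). Of the exonic bases of Ifi35, 16.8% overlap a gene on the other strand.

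**Figure D4:**
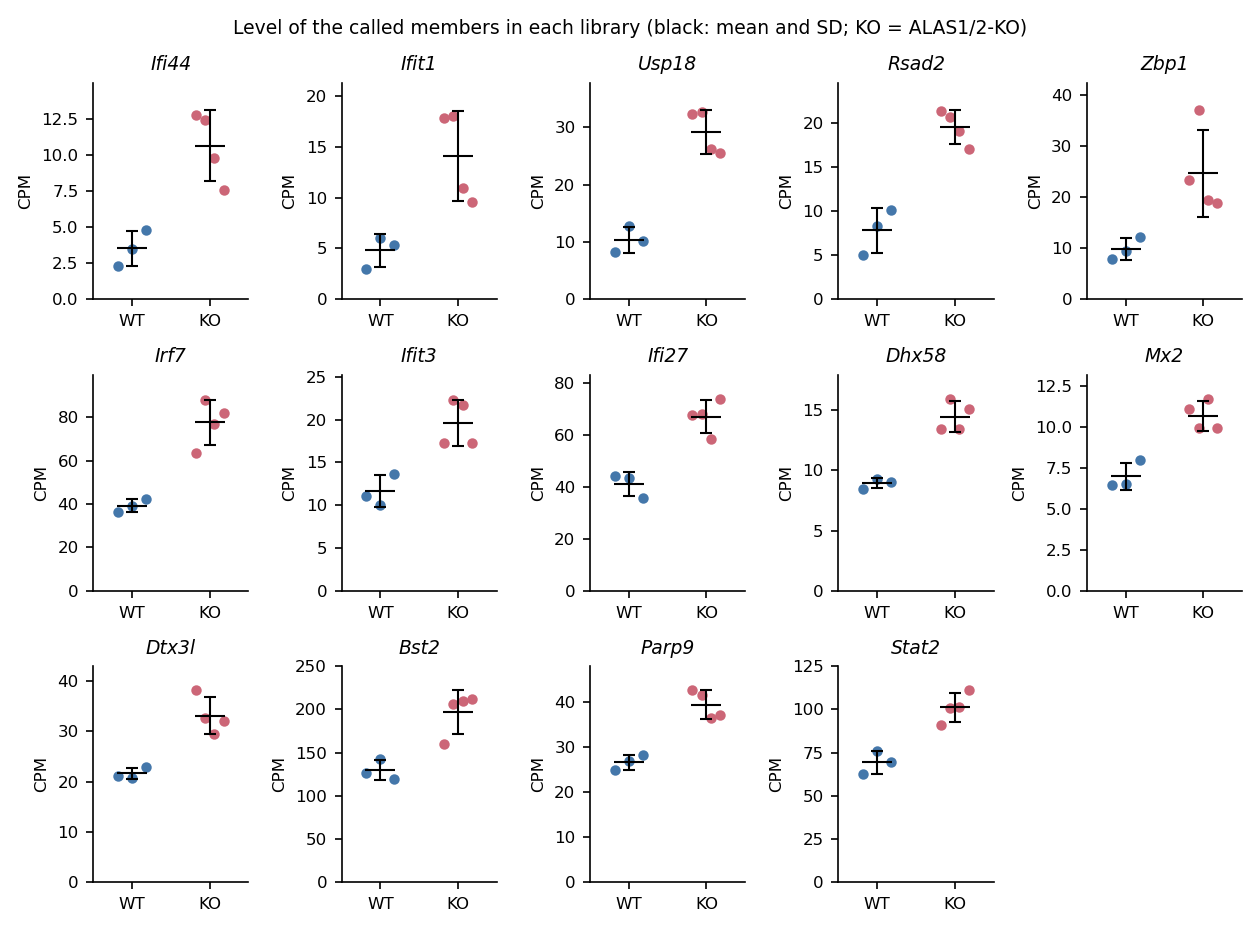
CPM of the 14 called members (panels, by falling fold) in the 3 WT and 4 ALAS1/2-KO libraries (points), with the mean and SD in black. In each panel all ALAS1/2-KO points lie above all WT points, from Ifi44 at 7.59 CPM or more against 4.77 or less, to Stat2 at 91.1 or more against 75.9 or less.

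Per kilobase of exon, which allows levels of different genes to be compared, the members spanned a wide range. Over all 7 libraries, Ifitm3 averaged 503 CPM per kb, Bst2 186 CPM per kb and Ifi27 38.1 CPM per kb. At the other end, Oas3 averaged 0.69, Oas1b 0.701 and Mx1 0.911 CPM per kb. Of the members with the largest folds, Ifi44 stood at 0.574, Ifit1 at 1.81 and Usp18 at 3.72 CPM per kb in WT, against 11.7 for Stat2 and 10.4 for Irf7. Low WT levels were also found for members with little change, Oas3 at 0.598, Oas1b at 0.703 and Ifit2 at 1.46 CPM per kb. Isg15, 2.3-fold higher without a call, stood at 9.95 CPM per kb in WT. In ALAS1/2-KO, Usp18 reached 10.5 CPM per kb, above Rsad2 at 4.5, Ifit1 at 5.3 and Zbp1 at 6.99 CPM per kb.

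The order of the ALAS1/2-KO libraries differed between members. In 12 members, among them Usp18, Rsad2, Ifit1, Isg15, Ifih1 and Zbp1, replicates 1 and 2 were both above replicates 3 and 4. In another 12, among them Stat2, Ifit2, Mx1, Trim30a, Bst2 and 5 of the 7 OAS family genes, they were both below. Those are 29.3% of the members either way, close to the shares over all genes tested, 24.7% and 26.8%, so these orders are not particular to the members. Replicate 1 was the lowest ALAS1/2-KO library for 20 members and replicate 4 for 14, while replicate 2 was the highest for 14 and replicate 3 for 13.

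Markers of other liver cells differed between the same libraries. The summed level of 11 of 11 Kupffer cell and macrophage markers was 1128, 980 and 1338 CPM in WT and 251, 753, 1597 and 1473 CPM in ALAS1/2-KO. The sum of 9 of 9 markers of sinusoidal endothelial cells, which line the liver's capillaries, was 356, 304 and 381 CPM in WT and 75.7, 173, 331 and 257 CPM in ALAS1/2-KO. The sum of 9 of 9 stellate cell and fibroblast markers was 329, 178 and 295 CPM in WT and 42.5, 87.4, 209 and 145 CPM in ALAS1/2-KO. Replicate 1 was thus lowest in each list, replicate 2 next, and no marker of these 3 lists was at 0 in any library. None of the 29 markers was called in limma or with limma voom. None was higher and 10 were lower at an unadjusted p under 0.05. Of those 10, 8 were stellate cell and fibroblast markers, 2 were endothelial and 0 were macrophage markers. Other lists were lower in all 4 ALAS1/2-KO libraries: 5 of 6 B cell markers summed to 32.9 to 50.5 CPM in WT and 6.65 to 22.7 CPM in ALAS1/2-KO (Ighm and Cd79a called lower), and 2 of 5 cholangiocyte markers to 12.1 to 21.1 and 2.72 to 5.35 CPM (Spp1 called lower). For 5 of 8 monocyte and neutrophil markers the sums were 16.7 to 21.9 and 4.35 to 15.2 CPM, with none called in limma or limma voom and 2 lower at an unadjusted p under 0.05. The part of these cells in the members' values was not tested.

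The library order of Oas2, Oas3, Trim30a and Ifit2 within ALAS1/2-KO had replicate 1 lowest and replicate 2 next, as the macrophage sum did. Oas1a, Oas1g, Oasl2, Mx1 and Ifnar2 had that order too, as did the called members Stat2 and Bst2. The part of other liver cells in the values of those members was not tested. Usp18, Ifit1, Isg15, Ifih1, Rsad2, Ifi44, Parp9, Dtx3l and Zbp1 were above every WT library in ALAS1/2-KO replicate 1, the library with the lowest sums of the 3 lists. So were Stat2, Bst2 and the rest of the 24 members whose groups did not overlap. Without replicates 1 and 2 of ALAS1/2-KO, 20 members were called higher, Oas2 (log2 fold change 0.85, limma adjusted p = 0.0172) and Oas3 among them. The libraries left out were the lowest of ALAS1/2-KO for both genes. In that fit the median log2 fold change was 0.57 over the members and -0.000183 over all genes tested. Calls over all genes vary between fits, so the count of 20 alone does not set the members apart. With a score of the 29 markers as a covariate, the count of members called higher was also 20. Oas2 was at 0.82 (limma adjusted p = 0.0416), while Zbp1 lost its call. The fit with the score called 949 of all genes tested, against 617 as reported. No member was called lower in either fit.

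**Figure D5:**
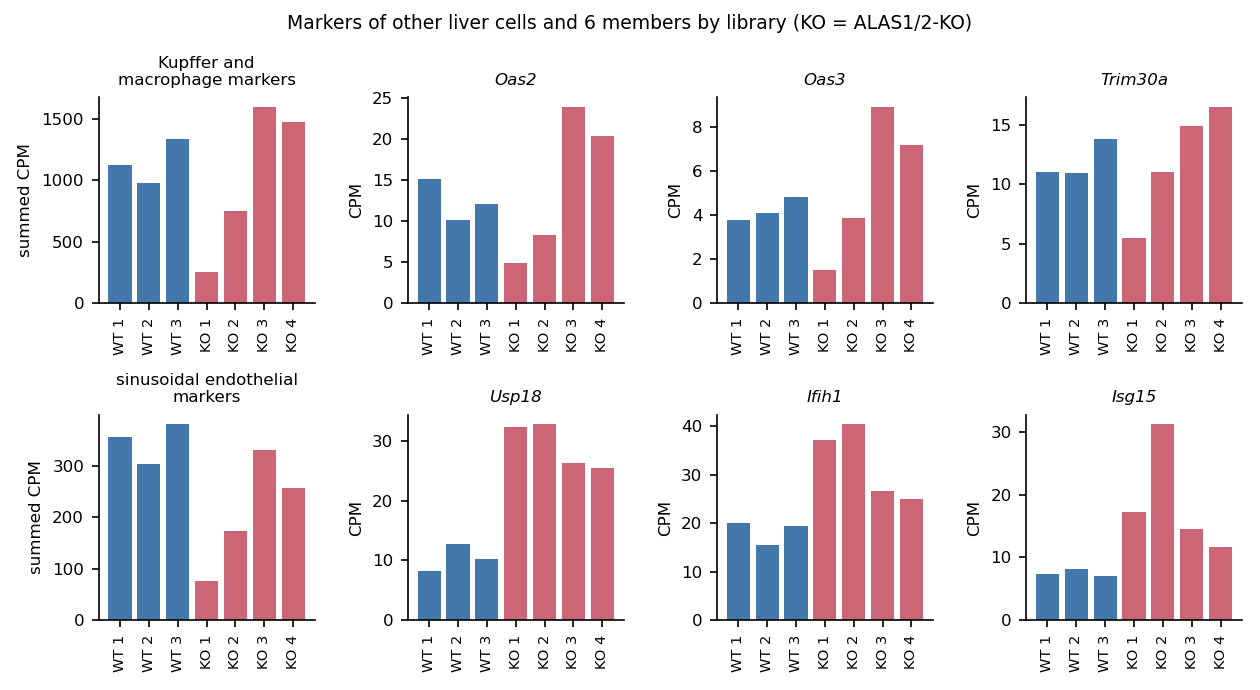
Summed CPM of Kupffer cell and macrophage markers and of sinusoidal endothelial markers, and CPM of 6 members, in each library (WT blue, ALAS1/2-KO red, all axes from 0). Oas2, Oas3 and Trim30a are lowest in ALAS1/2-KO replicate 1, where the macrophage sum is 251 CPM, while Usp18, Ifih1 and Isg15 are above all WT libraries there.

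Of the plasmacytoid dendritic cell markers, cells known for making much interferon, 5 of 7 were in the table, and 1 of them is Bst2 itself. Their summed level was 147 to 168 CPM in WT libraries and 178 to 241 CPM in ALAS1/2-KO libraries, most of it from Bst2, and none was at 0. The other 4 went both ways. Ly6d was called higher, at 2.71, 3.45 and 5.27 CPM in WT and 10.4, 8.09, 15.5 and 11.8 CPM in ALAS1/2-KO. Klk1 was called lower, at 1.26 to 1.87 CPM in WT and 0.09 to 0.49 CPM in ALAS1/2-KO. Siglech, at 1.87 to 2.30 CPM in WT and 0.33 to 1.53 CPM in ALAS1/2-KO, and Tcf4, at 13.9 to 18.5 and 8.07 to 12.6 CPM, were lower in all ALAS1/2-KO libraries without a call.

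Genes of the pathway outside the set showed calls among induced genes and inhibitors. No kinase or receptor was called. With 5.1% called over all genes tested (2.91% higher), that does not set those short lists apart. None of the 16 interferon genes listed as ligands was in the table under the symbols searched, so their levels were not tested. Of 59 other interferon-stimulated genes tested, 9 were called higher and 0 lower in limma (7 with limma voom), with 23 higher and 2 lower at an unadjusted p under 0.05 and a median log2 fold change of 0.26. Gbp3, a guanylate-binding protein gene, rose 2.32-fold (limma adjusted p = 0.00798) and Igtp, an immunity-related GTPase gene, rose 2.16-fold (limma adjusted p = 0.0155). Rnf213 rose 1.71-fold (limma adjusted p = 0.0218) and Gbp7 1.83-fold (limma adjusted p = 0.0234).

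Among 14 inhibitors of the pathway, Nlrc5, also known as an activator of MHC class I genes, rose 1.65-fold (limma adjusted p = 0.029). Adar, which edits double-stranded RNA and is itself induced by interferon, rose 1.41-fold (limma adjusted p = 0.0496). With limma voom 1 of the 14 inhibitors was called, and Adar is also counted among the 59 other interferon-stimulated genes. No inhibitor was called lower, and no inhibitor was lower at an unadjusted p under 0.05. Of 18 other sensors and adaptors tested, only Tkfc was called, 1.9-fold higher (limma adjusted p = 0.0229). It encodes a triose kinase of fructose metabolism that has also been described as a regulator of MDA5.

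None of 17 kinases and other signal transducers was called in limma or with limma voom, and 1 was higher at an unadjusted p under 0.05. The log2 fold changes of Stat3 and Jak1, the most abundant of them, were -0.19 and 0.15. None of 3 other interferon receptor genes was called in limma or with limma voom, and none reached an unadjusted p under 0.05. Of 12 genes named for type II interferon, none was called in limma or with limma voom and 1 was higher at an unadjusted p under 0.05. That list held other guanylate-binding protein genes, while Gbp3 and Gbp7, both called higher, were counted among the other interferon-stimulated genes. The absence of calls therefore depends on how this family was divided. Cd74 and H2-Aa, genes of antigen presentation and the most abundant of these, stood at 19.6 and 8.92 CPM in ALAS1/2-KO replicate 1 and at 144 and 58.5 CPM in replicate 3, with WT between, at 70.3 ± 7.06 and 28.6 ± 3.99 CPM (SD, n = 3).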

How the data were processed

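RNA from hepatocytes was sequenced in 3 WT and 4 ALAS1/2-KO libraries, made with the TruSeq RNA kit per the labels' protocols. Per the submitters' processing notes, cutadapt, HISAT2 and the mouse build mm10 were used. The sources used here give no versions, read counter, annotation or strand handling. The authors deposited log2 CPM values with a small prior, in a table named as CPM, and these values were tested as deposited. CPM here is 2 to the power of the deposited value minus a floor of 0.0676 CPM. Values were whole multiples of 1 read's worth within 0.05 reads (100% of values). This gave the scaled size of each library and its reads over the listed genes.

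The test was limma 3.58.1 (R 4.3.3, trend and robust, two-sided) on genes that reached 1 CPM in 3 or more libraries, with Benjamini-Hochberg adjustment and a threshold of 0.05. A fold change includes the deposited prior, which understates low genes. Exact tests permuted the 7 libraries over 35 assignments. The procedure was tested on simulated data. Gene models and 50-base stretches came from GENCODE M21 and promoter windows from RefSeq (GRCm38.p6). Of 35 member windows, 24 ended inside an annotated GENCODE transcript of the gene. Libraries of a group differed by more than counting noise (chi-square per degree of freedom of 18.1 or more), so none was treated as a library deposited again. This does not show that they came from separate animals.

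The members and all lists were chosen with earlier results of these data known. All members are accounted for, and those called, the most abundant, the receptors, sensors and transcription factors are given by library. Each pathway list contributes its called genes, at most 4 by p, or else its 2 most abundant genes. Other genes named were chosen after their values were seen. Alternatives were other pseudocounts, filters and scalings, limma without trend, with array weights, with a replicate block or with a marker score, limma voom on recovered reads, and fits without libraries.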

Additional observations from a re-analysis of the deposited data

Results flagged for a closer look

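The 4 ALAS1/2-KO libraries of each of the 41 members were examined for a library far from the other 3, relative to the group's whole range. Chance alone marks about 1 in 20 groups, and 3 of the 41 were marked. Bst2 stood at 160 CPM in ALAS1/2-KO replicate 1, with the nearest library at 206 CPM. Ifnar2 stood at 26.8 CPM in the same replicate, with the nearest library at 34.9 CPM. Mavs stood at 57.1 CPM in ALAS1/2-KO replicate 3, with the nearest library at 52.3 CPM. Without ALAS1/2-KO replicate 1 the adjusted p of Bst2 was 0.0112 in limma, against 0.0396 with all libraries.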

How the results depend on the processing

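Under the 20 alternatives run, 7 of which left out 1 library, no member was called lower. The count called higher was 30 with CPM rescaled to listed genes, 24 with array weights, 6 without trend, and 1 to 15 when each library was left out. In the other alternatives, apart from the replicate block, it was 10 to 20. Calls over all genes tested, 617 as reported, were 2735 after the rescaling, 2001 with array weights and 306 without trend. The members' median log2 fold change was 0.39 on log2(CPM + 5) and 0.88 after rescaling, where the difference from all genes was 0.56, as reported. Same-numbered libraries correlated at -0.03, 0.05 and 0.18 in their deviations, and differently numbered ones at -0.33 to 0.36. With so few libraries, these values cannot settle whether the numbers pair them. A replicate block, which drops ALAS1/2-KO replicate 4 in effect, gave 1 call among the members and 72 over all genes tested.

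Of 815 member values under alternatives, 659 kept direction and side of the threshold, 58 passed anew, 72 no longer passed and 26 changed sign, all for members not called with all libraries. Oas2 also passed in 2 of those 26. Oas2 was 0.0259 on log2(CPM + 5), 0.00947 with quantile normalization, 0.29 after rescaling, 0.58 with array weights, 0.82 with the marker score and 0.85 without ALAS1/2-KO replicates 1 and 2. Trim30a was 0.23 after rescaling, 0.26 with array weights, 0.48 with the marker score and 0.40 without those 2 libraries. Oas1b was -0.000497 on log2(CPM + 5), -0.0539 without the most abundant genes and -0.10 with voom, and Oas3 was -0.16 with the replicate block. Leaving out each library gave -0.27 to 0.27 for Oas1b, -0.38 to 0.38 for Oas2, -0.26 to 0.57 for Oas3, -0.29 to 0.23 for Trim30a and -0.11 to 0.45 for Ifit2. The cause was not tested. With 3 and 4 libraries, the exact test cannot give a p below 0.0286, and the least read member had 17 reads in its lowest library.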
